A study of Mus musculus with 14 samples.

Results

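The cyclic AMP genes that hold the mouse oocyte in meiotic arrest were followed through single oocytes with and without maternal Kdm1a. They are 10 named genes of the 24064 in the count table, chosen by name with earlier results of these data known, and they comprise the receptors Gpr3 and Gpr12, the stimulatory G protein gene Gnas, the adenylyl cyclases Adcy3 and Adcy9, the phosphodiesterase Pde3a, and the protein kinase A subunits Prkar1a, Prkar2a, Prkaca and Prkacb. RNA of single ovulated oocytes was amplified from the 3′ end and sequenced. The 14 libraries were read as 10 oocytes. The control group held 4 wt/wt oocytes of strain C57BL/6J (wt1, wt3, wt4 and wt5) and 1 f/f oocyte of mixed B6;129 strain (C3), with floxed Kdm1a alleles and no cre. The mutant group held 5 oocytes labelled Lsd1/Kdm1a mko/mko, also of mixed B6;129 strain (D1, D2, D3, D4 and D7), from females with floxed alleles and Zp3-cre, a transgene that acts in growing oocytes and removes the first exon of Kdm1a. The methods give an age for the females that bore embryos and none for the donors of these oocytes.

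The arrest of the oocyte at prophase of meiosis I rests on a high level of cyclic AMP inside the cell. The constitutively active receptors GPR3 and GPR12 act through the stimulatory G protein α subunit on adenylyl cyclase, which makes cyclic AMP. Cyclic AMP binds the regulatory subunits of protein kinase A (PKA) and frees its catalytic subunits, which keep the maturation-promoting factor inactive, and the phosphodiesterase PDE3A breaks cyclic AMP down when the arrest ends. The oocytes measured here were ovulated and had left this arrest, so the counts describe the transcripts that a mature oocyte still carried.

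Counts per oocyte summed to 1375187 to 1892015 in wt/wt oocytes, 6928548 in C3 and 2016701 to 6926076 in mutant oocytes. Levels are given as CPM, counts scaled to a common library size after TMM, which estimates a factor per oocyte from most genes, and 3 counts stood for 0.456 to 1.83 CPM, depending on the oocyte. A single gene took 6.02% to 8.89% of the counts in the f/f and mutant oocytes, and no gene took more than 2.51% in a wt/wt oocyte. Strain and genotype coincide between wt/wt and mutant oocytes, so their parts cannot be told apart there, and C3 alone among the controls shares the mutants' strain. Kdm1a had 27 to 85 counts in wt/wt oocytes, 669 in C3 and 0 to 10 in mutant oocytes, where a transcript lacking its first exon could still be counted. Each of 10 oocyte markers was detected, with a summed level of 11027 to 29050 CPM in wt/wt, 47401 CPM in f/f and 51479 to 105970 CPM in mutant oocytes. Of 16 markers of cumulus and granulosa cells, which surround the oocyte, 9 had no count in any oocyte, Fshr, Amh and Foxl2 among them. The list summed to 11.2 to 68.0 CPM in wt/wt, 69.7 CPM in f/f and 84.1 to 155 CPM in mutant oocytes, and 2201 of its counts were of Cyp19a1. Its part in the results below was not tested.

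The receptor gene Gpr3 and the G protein gene Gnas were higher in mutant oocytes, and the other 7 members that could be tested, the second receptor gene Gpr12 among them, did not pass the test. Of the 10 members, 9 had enough counts to be tested, 2 were called higher, none was called lower, and 5 had an unadjusted p under 0.05 from edgeR's quasi-likelihood test, as did 39.4% of all tested genes. A call needed a Benjamini-Hochberg adjusted p below 0.05 and a log2 fold change of 1 or more in size. Among all 9198 genes tested, 25.9% were called, 14.7% higher and 11.2% lower, so the share of members called, 22.2%, was close to that of any gene. The members' median log2 fold change was 0.35 and that of all tested genes was 0.17. Scaling by library totals moved the median of all genes to -0.23 and the calls from 1353 higher and 1031 lower to 963 higher and 1668 lower.

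**Figure D1:**
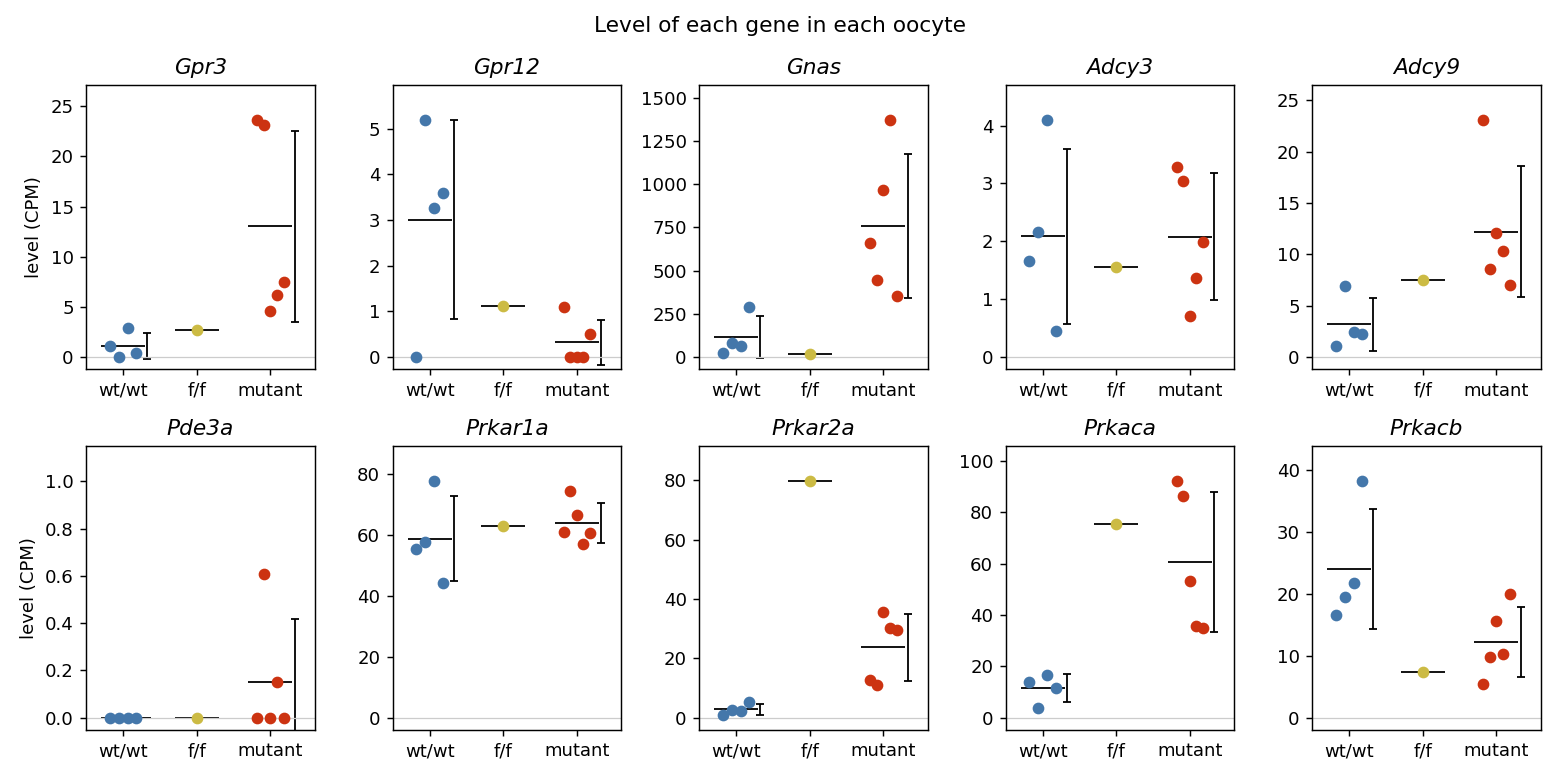
Level of each of the 10 genes in CPM (vertical axis, a scale of its own in each panel) in each wt/wt (blue), f/f (yellow) and mutant (red) oocyte. Horizontal lines are means and bars are SDs. Gpr3 and Gnas lay higher in each mutant oocyte than in each control oocyte, Prkar2a was higher in C3 than in each mutant oocyte, Prkaca in C3 lay within the mutant range, and Pde3a lay at or near 0.

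Gpr3 encodes the main constitutively active receptor of the mouse oocyte and lies at chr4:133209340-133212536 (mm10, minus strand). It had 2, 0, 7 and 1 counts in wt1, wt3, wt4 and wt5, 12 in C3, and 43, 38, 13, 41 and 15 in D1, D2, D3, D4 and D7. Its level was 1.10 ± 1.26 CPM (SD, n = 4) in wt/wt oocytes, 2.66 CPM in C3 and 13.0 ± 9.50 CPM (SD, n = 5) in mutant oocytes. The lowest mutant oocyte, D3 at 4.63 CPM, stood above the highest control, wt4 at 2.86 CPM, and D1 and D2 stood well above the other mutants. Groups without overlap were seen for 16.2% of all tested genes. The gene rose 8.43-fold, or 3.08 on the log2 scale (standard error 0.78, adjusted p = 0.01). Against wt/wt oocytes alone the log2 fold change was 3.53 (adjusted p = 0.0065), and against the f/f oocyte alone it was 2.28 (adjusted p = 0.307), where a lone control is assumed to vary like the mutants. With 150 of its 172 counts in mutants and 22 in controls, fewer than the 35 of the last gene kept, Gpr3 passed the filter on low counts through the mutant group. It was called with no filter (log2 fold change 3.06, adjusted p = 0.00266) and had too few counts to be tested with edgeR's own filter, under which 6 members were tested and the 2 called higher were Gnas and Adcy9. An exonic stretch of 204 bases is shared with Cd164l2 on the opposite strand, and whether reads were counted by strand is not given in the sources used here. Cd164l2 had 19 to 174 counts in wt/wt, 74 in f/f and 22 to 206 in mutant oocytes. It had 206 and 70 counts in D1 and D2, where the level of Gpr3 was highest. In wt3 and wt4 it had 146 and 174 counts, where Gpr3 had 0 and 7. Its part in the Gpr3 counts was not tested.

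Gpr12 encodes a close relative of GPR3 that can also raise cyclic AMP, and lies at chr5:146582398-146585239 on the minus strand. It had 0, 12, 8 and 8 counts in wt1, wt3, wt4 and wt5, 5 in C3, and 2, 0, 0, 0 and 1 in the mutant oocytes in the same order as above. These counts are 3.01 ± 2.17 CPM (SD, n = 4) in wt/wt, 1.11 CPM in f/f and 0.319 ± 0.485 CPM (SD, n = 5) in mutant oocytes. The groups overlapped through wt1, and in CPM each other control lay above each mutant. C3 at 1.11 CPM (5 counts) and D1 at 1.10 CPM (2 counts) were nearly equal, and their order rests on the scaling. The 33 counts in controls and 3 in mutants give a pooled level 12.3 times higher in controls, with an exact 95% interval of 3.85 to 62.6 that covers counting error and not the spread between oocytes. In the fit across all genes the log2 fold change was -3.15 (standard error 1.20, adjusted p = 0.062), which did not pass. It passed with library totals (log2 fold change -3.67, adjusted p = 0.0298), with DESeq2 (-3.26, adjusted p = 0.046), with every library as its own sample (-3.10, adjusted p = 0.0207), without wt1 (-3.46, adjusted p = 0.0438) and without D1 (-4.33, adjusted p = 0.044). It did not pass with upper-quartile scaling, no filter, thinned counts or 1 library per oocyte (adjusted p from 0.0605 to 0.108), with the replicate block (adjusted p = 0.252) or without D2, D3, D4 or D7 (adjusted p from 0.0771 to 0.124). With 36 counts in all, just over the 35 of the last gene kept, Gpr12 had too few to be tested without C3, wt3, wt4 or wt5, against the f/f oocyte alone or with edgeR's own filter.

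The promoters of the receptor genes are shown because Gpr3 was called higher while Gpr12, which did not pass, had fewer counts in mutants. A link between promoter and level was not tested. The cyclic AMP response element TGACGTCA is bound by CREB, a target of PKA, and its core TGACG can also be bound. The windows run from 250 bases before to 50 after a RefSeq start (mm10), and capitals mark the core on either strand. Of 32851 such windows over all genes, 20.8% held the core and 1.79% the whole element, which contains the core on each strand. A match is a description of letters and not a binding site.
Gpr3 chr4:133212487-133212786 minus strand: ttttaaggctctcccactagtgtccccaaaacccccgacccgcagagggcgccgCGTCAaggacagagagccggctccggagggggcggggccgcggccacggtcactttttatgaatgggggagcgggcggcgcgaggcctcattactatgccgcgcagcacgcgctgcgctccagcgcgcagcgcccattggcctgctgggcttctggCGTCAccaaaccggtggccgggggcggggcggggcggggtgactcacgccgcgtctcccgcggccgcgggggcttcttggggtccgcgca
Gpr12 chr5:146585190-146585489 minus strand: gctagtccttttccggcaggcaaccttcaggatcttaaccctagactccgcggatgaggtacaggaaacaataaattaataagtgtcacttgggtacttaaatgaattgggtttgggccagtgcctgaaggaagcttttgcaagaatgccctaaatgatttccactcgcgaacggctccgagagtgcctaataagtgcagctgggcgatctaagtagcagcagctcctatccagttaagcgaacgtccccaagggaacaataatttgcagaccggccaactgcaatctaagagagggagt
The Gpr3 window held 2 copies of the core and was 72.0% G and C, and the Gpr12 window shown held none and was 48.3% G and C. The other RefSeq window of Gpr12, at chr5:146584355-146584654, also held none and was 54.7% G and C.

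Within an oocyte the ratio of Gpr3 to Gpr12 does not depend on how libraries are scaled. The log2 ratio of counts, with 0.5 added to each, was 2.32, -4.64, -0.18 and -2.50 in wt1, wt3, wt4 and wt5, 1.18 in C3, and 4.12, 6.27, 4.75, 6.38 and 3.37 in D1, D2, D3, D4 and D7. Every mutant oocyte lay above every control, and the value of wt1 rests on 2 counts in all. The mean rose by 5.74, from -0.76 ± 2.82 (SD, n = 5) to 4.98 ± 1.32 (SD, n = 5), with p = 0.00794 in a two-sided exact permutation test, the smallest that 5 against 5 oocytes allow, and 0.0397 after adjustment over the 5 ratios tested. The ratio uses the same counts as the fits of Gpr3 and Gpr12 above and adds no separate support. Gpr3 passed the filter on low counts through the mutant group, and the pairs were chosen with earlier results of these data known. The size of the difference rests on the 0.5 added where Gpr12 had no count, and with 2 added in its place the difference was 4.07. Leaving out any mutant oocyte raised the adjusted p to 0.0794, with the difference between 5.39 and 6.14.

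Gnas, which encodes the stimulatory G protein α subunit, spans chr2:174284320-174346744 on the plus strand. It was the member with the most counts in mutant oocytes. In wt1, wt3, wt4 and wt5 it had 38, 194, 160 and 649 counts, in C3 72, and in D1, D2, D3, D4 and D7 it had 1201, 727, 2708, 8994 and 709. As levels the wt/wt oocytes had a median of 74.6 and a highest of 291 CPM, C3 had 15.98 CPM, and the mutants had 659, 443, 964, 1368 and 354 CPM. In CPM all mutants lay above all controls, and wt5 came closest to them. As shares of library totals, wt5 (649 of 1637050 counts) stood above D2 (727 of 2016701) and D7 (709 of 2135951). The mean was 115 ± 120 CPM (SD, n = 4) in wt/wt oocytes and 757 ± 415 CPM (SD, n = 5) in mutant oocytes. Mutant oocytes had 7.94 times the control level, or 2.99 more on the log2 scale (standard error 0.68, adjusted p = 0.00573). It was 4.06 (adjusted p = 6.6e-04) without wt5, 2.68 (adjusted p = 0.0049) against wt/wt alone and 5.58 (adjusted p = 0.0883) against the f/f oocyte alone, which had the lowest level of all 10 oocytes. The libraries that share a name held 42 and 30 counts for C3, 809 and 1899 for D3, 3976 and 5018 for D4 and 402 and 307 for D7. Gnas is an imprinted locus with several promoters, and transcripts that start at 174284320, 174297859, 174327768 or 174330006 are annotated, most of them running into the same 3′ exons. Counts per gene do not say which start was used. Nespas, an antisense transcript of the locus, was listed at 0 in each oocyte. Gm20721, annotated on the opposite strand with 1469 shared exonic bases, was not analysed here, and its part in the Gnas counts was not tested.

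The window at the start of the transcript for the α subunit itself is shown because Gnas had the most counts of the called members. It held 1 copy of the core and was 81.7% G and C.
Gnas chr2:174329756-174330055 plus strand: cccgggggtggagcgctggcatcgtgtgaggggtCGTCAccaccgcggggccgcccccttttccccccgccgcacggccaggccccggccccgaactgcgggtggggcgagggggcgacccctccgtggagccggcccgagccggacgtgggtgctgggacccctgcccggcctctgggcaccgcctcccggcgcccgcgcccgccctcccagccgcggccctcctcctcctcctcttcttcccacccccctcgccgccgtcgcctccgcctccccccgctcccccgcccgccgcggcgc

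The adenylyl cyclases, which make cyclic AMP, were low. Adcy3, the cyclase most studied in the rodent oocyte (chr12:4133103-4213525, plus strand), had 3, 5, 10 and 1 counts in wt/wt oocytes, 7 in C3 and 6, 5, 2, 9 and 4 in mutant oocytes. Its level was 2.09 ± 1.51 CPM (SD, n = 4) in wt/wt, 1.55 CPM in f/f and 2.08 ± 1.09 CPM (SD, n = 5) in mutant oocytes, and the groups overlapped throughout. The log2 fold change was 0.03 (adjusted p = 0.984), and 2 standard errors either side reach from -1.57 to 1.62, so changes inside that interval could not be told from none in these oocytes. Adcy3 shares 1380 exonic bases with Cenpo on the opposite strand, which had 41 to 133 counts in wt/wt, 73 in f/f and 6 to 61 in mutant oocytes.

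Adcy9 (chr16:4287529-4420498, minus strand) encodes a cyclase that is less responsive to forskolin than other membrane cyclases. It had 2, 16, 6 and 5 counts in wt/wt oocytes, 34 in C3 and 42, 14, 34, 68 and 14 in mutant oocytes. In CPM that is 3.18 ± 2.55 (SD, n = 4) in wt/wt, 7.55 in f/f and 12.2 ± 6.36 (SD, n = 5) in mutant oocytes. Each mutant oocyte, from 6.98 CPM in D7, lay above each wt/wt oocyte, the highest of which was wt3 at 6.90 CPM, and the f/f oocyte lay within the mutant range. This gap between mutant and wt/wt oocytes rests on the scaling. As shares of library totals, wt3 (16 of 1740242 counts) stood above D2 (14 of 2016701) and D7 (14 of 2135951). The difference of 1.54 on the log2 scale (standard error 0.59, adjusted p = 0.0635) did not pass. Adcy9 passed against wt/wt oocytes alone (log2 fold change 1.94, adjusted p = 0.0273), with DESeq2 (1.58, adjusted p = 0.0291), with edgeR's own filter (1.66, adjusted p = 0.0383), with every library as its own sample (1.29, adjusted p = 0.0475) and with 1 library per oocyte (1.78, adjusted p = 0.0349). The log2 ratio of Adcy3 to Adcy9 differed by -1.59, mutant minus control, and did not pass (two-sided exact permutation test, 5 against 5, p = 0.0714, adjusted p = 0.119).

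Pde3a, the gene of the phosphodiesterase whose activity ends the arrest (chr6:141249269-141507448, plus strand), was next to undetected. No control oocyte had a count and the mutants had 2 in all, 1 each in D2 and D4. With 3 counts as the limit that a count of 0 allows, its level in each control was under 0.666 to 1.66 CPM, depending on the oocyte. It was not tested, and the log2 ratio of Pde3a to Adcy3, which rests on those 2 counts, differed by 0.48 (two-sided exact permutation test, 5 against 5, p = 0.429). The annotated exons of Pde3a span 12.7 kb, the longest of the members, while the cDNA reaches up to 3 kb from the 3′ end. Whether that bears on the counts was not tested, and they say nothing on the protein. The related Pde3b had 3198 counts over the 10 oocytes, more than any other phosphodiesterase in the list of other cyclic AMP phosphodiesterases.

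Prkar1a encodes the type I regulatory subunit of PKA (chr11:109649405-109669656, plus strand) and had the lowest spread of the members. It had 100, 134, 190 and 99 counts in wt/wt oocytes, 283 in C3 and 111, 122, 187, 376 and 122 in mutant oocytes. Its level was 58.8 ± 13.9 CPM (SD, n = 4) in wt/wt, 62.8 CPM in f/f and 64.0 ± 6.70 CPM (SD, n = 5) in mutant oocytes. The 10 oocytes ran from 44.4 to 77.7 CPM, and the mutant range lay inside the wt/wt range. The log2 fold change was 0.10 (standard error 0.31, adjusted p = 0.836), with 2 standard errors either side reaching from -0.52 to 0.72, and it was -0.34 under library totals. Among the 9 members with a window in the table only Prkar1a held the whole TGACGTCA element, in 2 overlapping windows of its 6, and 1 of them is shown for comparison with the windows above.
Prkar1a chr11:109650612-109650911 plus strand: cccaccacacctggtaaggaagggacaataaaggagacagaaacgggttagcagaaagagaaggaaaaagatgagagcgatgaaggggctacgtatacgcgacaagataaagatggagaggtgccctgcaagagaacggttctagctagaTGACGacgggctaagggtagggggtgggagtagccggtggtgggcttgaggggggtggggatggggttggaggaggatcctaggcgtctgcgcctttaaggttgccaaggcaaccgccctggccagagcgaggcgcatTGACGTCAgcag
In this window the core stands 3 times, 2 of them within the whole element near its 3′ end. Over these members 11 of 22 windows held the core, and windows of 1 gene can overlap.

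Prkar2a encodes a type II regulatory subunit, the form that A-kinase anchoring proteins bind most tightly (chr9:108689314-108750436, plus strand). Its counts were 2, 6, 6 and 12 in wt/wt oocytes, 359 in C3 and 23, 18, 100, 198 and 59 in mutant oocytes. The level was 2.88 ± 1.80 CPM (SD, n = 4) in wt/wt, 79.7 CPM in f/f and 23.7 ± 11.2 CPM (SD, n = 5) in mutant oocytes. The f/f oocyte was the highest of all, at 27.6 times the wt/wt mean, and its libraries had 275 and 84 counts. The mutants lay between, each above each wt/wt oocyte and below the f/f oocyte. With wt/wt and f/f oocytes as control the log2 fold change was 0.35 (adjusted p = 0.79). It was 3.00 (adjusted p = 0.0015, called) against wt/wt alone and -1.71 (adjusted p = 0.212) against the f/f oocyte alone, so its direction turned with the control.

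Of the catalytic subunit genes, Prkaca had its lowest levels and Prkacb its highest mean in wt/wt oocytes. Prkaca, which encodes the main catalytic subunit (chr8:83972993-83996443, plus strand), had 25, 9, 41 and 26 counts in wt/wt oocytes, 340 in C3 and 168, 142, 150, 236 and 70 in mutant oocytes. Its level was 11.5 ± 5.51 CPM (SD, n = 4), 75.5 CPM and 60.6 ± 27.3 CPM (SD, n = 5). The f/f oocyte lay inside the mutant range of 34.9 to 92.1 CPM, and the wt/wt oocytes, up to 16.8 CPM, lay below all of these. The log2 fold change was 1.29 (adjusted p = 0.124) against both kinds of control, 2.42 (adjusted p = 0.0023, called) against wt/wt alone and -0.29 (adjusted p = 0.844) against the f/f oocyte alone.

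Prkacb, which encodes the second catalytic subunit (chr3:146729574-146812990, minus strand), had 30, 45, 53 and 85 counts in wt/wt oocytes, 33 in C3 and 10, 16, 44, 68 and 40 in mutant oocytes. It stood at 24.0 ± 9.68 CPM (SD, n = 4) in wt/wt, 7.33 CPM in f/f and 12.2 ± 5.62 CPM (SD, n = 5) in mutant oocytes. The f/f oocyte lay below each wt/wt oocyte, and the mutants overlapped with both. No call was made, with log2 fold changes of -0.74 (adjusted p = 0.278), of -0.98 (adjusted p = 0.112) against wt/wt alone and of 0.77 (adjusted p = 0.651) against the f/f oocyte alone.

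**Figure D2:**
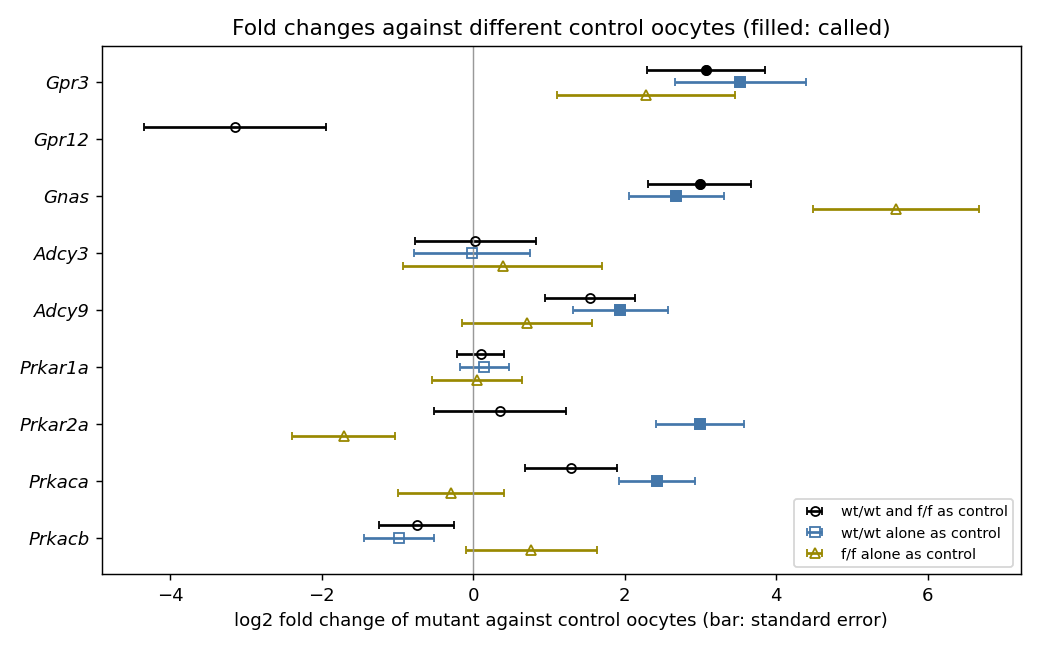
Log2 fold change, mutant over control, (horizontal axis, bars are standard errors) for the 9 tested members, with wt/wt and f/f oocytes (black circles), wt/wt alone (blue squares) or the f/f oocyte alone (yellow triangles) as control. Filled symbols are called. Gpr3 and Gnas stayed above 0 with each control, Prkar2a, Prkaca and Prkacb changed sign with the f/f oocyte alone, and Gpr12 was tested with both kinds of control together only.

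The calls among the members depended on which oocytes served as control. Against wt/wt oocytes alone 5 of 8 tested members were called higher (Gpr3, Gnas, Adcy9, Prkar2a and Prkaca) and none lower, where 31.5% of 9166 genes were called and 18.8% were called higher. Against the f/f oocyte alone no member was called, where 0.034% of 8811 genes were called and 1670 genes had an unadjusted p under 0.05. In CPM the mutants stood above each wt/wt oocyte without overlap for those same 5 members, as for 13.8% of all tested genes. For Gnas and Adcy9 this order rests on the scaling, as given above. The f/f oocyte lay outside the wt/wt range for 5 of the 10 members, above it for Adcy9, Prkar2a and Prkaca and below it for Gnas and Prkacb, as for 51.8% of all tested genes.

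The subunit pairs were also compared within each oocyte. Prkar2a made up 1.96% to 10.8% of the counts of both regulatory subunit genes in wt/wt oocytes, 55.9% in C3 (95% Wilson interval 52.1% to 59.7%) and 12.9% to 34.8% in mutant oocytes. Prkaca made up 16.7% to 45.5% of the counts of both catalytic subunit genes in wt/wt oocytes, 91.2% in C3 (95% Wilson interval 87.8% to 93.6%) and 63.6% to 94.4% in mutant oocytes. These shares compare counts and not molecules, since the genes differ in length, and the intervals cover counting error only. The log2 ratio of Prkar1a to Prkar2a was 5.33, 4.37, 4.87 and 2.99 in wt/wt oocytes, -0.34 in C3 and 2.25, 2.73, 0.90, 0.92 and 1.04 in mutant oocytes. The difference, mutant minus control, was -1.88 and did not pass (two-sided exact permutation test, 5 against 5, p = 0.119, adjusted p = 0.149), and was -2.82 against wt/wt alone (two-sided exact permutation test, 4 against 5, p = 0.00794, adjusted p = 0.0132). For Prkaca to Prkacb the log2 ratio was -0.26, -2.26, -0.37 and -1.69 in wt/wt oocytes, 3.35 in C3 and 4.00, 3.11, 1.76, 1.79 and 0.80 in mutant oocytes. The difference of 2.54 did not pass (two-sided exact permutation test, 5 against 5, p = 0.0714, adjusted p = 0.119), and was 3.44 against wt/wt alone (two-sided exact permutation test, 4 against 5, p = 0.00794, adjusted p = 0.0132).

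**Figure D3:**
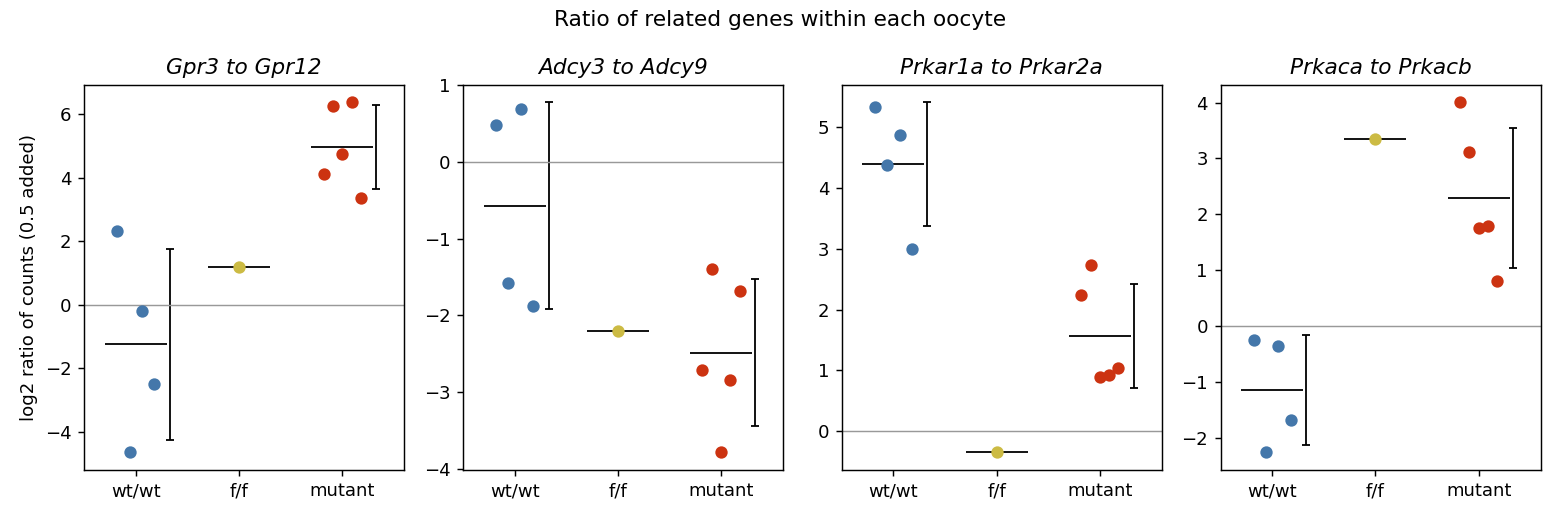
Log2 ratio of the counts of related genes (vertical axis, 0.5 added to each count) within each wt/wt (blue), f/f (yellow) and mutant (red) oocyte, with means as lines and SDs as bars. The ratio of Gpr3 to Gpr12 was higher in every mutant oocyte than in every control, while for the PKA pairs the f/f oocyte lay with the mutants or beyond them.

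Levels of different genes were compared per kb of annotated exon. In wt/wt oocytes the order of means was Prkar1a at 13.6 CPM per kb, Gnas at 10.3, Prkaca at 4.64, Prkacb at 2.73, Gpr12 at 1.20, Adcy9 at 0.611, Prkar2a at 0.452, Gpr3 at 0.404, Adcy3 at 0.334 and Pde3a at 0. Neighbours in this order overlapped in their range over oocytes, except Adcy3 and Pde3a. With 3 counts as the limit that a count of 0 allows, Pde3a was under 0.0963 to 0.13 CPM per kb in wt/wt oocytes, which reaches above the lowest Adcy3 level of 0.0718 in wt5, so that pair was not shown to be apart either. In mutant oocytes Gnas led at 67.7 CPM per kb, followed by Prkaca at 24.4, Prkar1a at 14.8, Gpr3 at 4.76, Prkar2a at 3.72, Adcy9 at 2.35, Prkacb at 1.40, Adcy3 at 0.333, Gpr12 at 0.127 and Pde3a at 0.012. There the ranges were apart between Prkar1a and Gpr3 and between Prkacb and Adcy3. Gpr3 stood below Gpr12 in the wt/wt order and above it in the mutant order and in the f/f oocyte, at 0.974 and 0.442 CPM per kb. In the f/f oocyte Prkaca led at 30.3 CPM per kb, before Prkar1a at 14.5 and Prkar2a at 12.5, and Gnas stood at 1.43. With length capped at 3 kb, the stretch that the cDNA can cover, 18 of the 30 places moved, and Gnas came before Prkar1a in wt/wt oocytes.

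**Figure D4:**
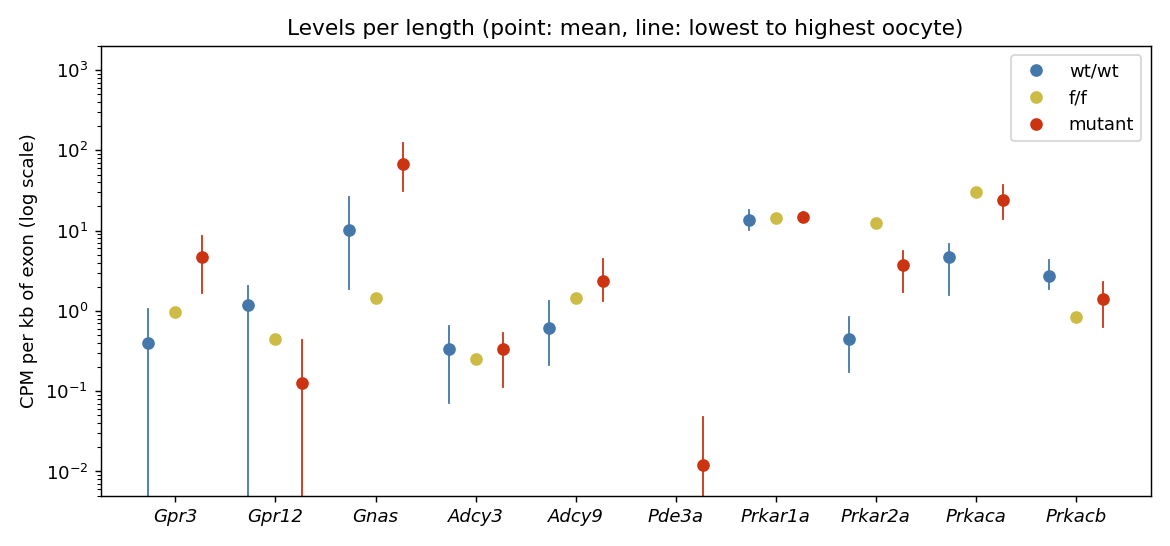
Mean level of each gene per kb of exon (vertical axis, CPM per kb on a log scale) in wt/wt (blue), f/f (yellow) and mutant (red) oocytes, with lines from the lowest to the highest oocyte. Lines that reach the lower edge include oocytes at 0, and means of 0, as for Pde3a in control oocytes, are not drawn.

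The other genes of the pathway came from 7 lists of 88 genes, of which 48 had enough counts to be tested. Of these 7 were called higher, 4 lower and 37 were not called, 22.9% called beside 25.9% of all genes, and their median log2 fold change was 0.12. Values before an adjusted p below are log2 fold changes. Among 9 tested receptors and G protein regulators 1 was called higher, 1 lower and 7 were not called, 22.2% called beside 25.9% of all genes. Gnai2, an inhibitory G protein α subunit, rose (3.62, standard error 0.76, adjusted p = 0.00366). Rgs2, a regulator that dampens G protein signalling and is abundant in mature oocytes, fell (-1.47, adjusted p = 0.0266). Gnai2 was at 0.553 to 8.18 CPM in wt/wt, 3.33 CPM in f/f and 11.0 to 146 CPM in mutant oocytes. Its log2 fold change was 2.73 without D1. Rgs2 lost its call without wt4 (adjusted p = 0.054), without C3 (adjusted p = 0.0549) and without D1, D3 or D4 (adjusted p = 0.0763, 0.0521 and 0.0546). No other adenylyl cyclase of 2 tested was called, where 25.9% of all genes were.

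Of 7 tested phosphodiesterases 2 were called higher and 1 lower, 42.9% called beside 25.9% of all genes, and both higher calls, Pde10a and Pde2a, were of genes that passed the filter on low counts through the mutant group. Pde3b, the relative of Pde3a, was at 152 to 262 CPM in wt/wt, 150 CPM in f/f and 29.5 to 97.7 CPM in mutant oocytes, without overlap, and its log2 fold change was -1.60 (standard error 0.39, adjusted p = 0.00802). Pde10a, which breaks down both cyclic AMP and cyclic GMP, was at 0 to 2.69 CPM in wt/wt, 1.11 CPM in f/f and 2.49 to 20.1 CPM in mutant oocytes (3.40, adjusted p = 0.00912, and 4.18 without wt5). It had 138 of its 151 counts in mutants and 13 in controls, was called with no filter (3.40, adjusted p = 0.00224), and had too few counts to be tested with edgeR's own filter. Pde2a, a phosphodiesterase that cyclic GMP stimulates, had no count in wt/wt oocytes, 2 in C3 and 0 to 28 in mutant oocytes. Its fitted log2 fold change of 3.76 (adjusted p = 0.0283) depends on the prior count and is no bound. Of its 43 counts 41 were in mutants, 28 of these in D4. Without D4, with 1 library per oocyte, with edgeR's own filter or with thinned counts it had too few counts to be tested. Pde2a lost its call without any 1 of the wt/wt oocytes (adjusted p from 0.0504 to 0.0619) or without D1 (adjusted p = 0.0585), and was 5.65 without C3.

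A-kinase anchoring proteins, which tether PKA to places in the cell, had 3 of 10 tested members called higher and 1 lower, 40.0% called beside 25.9% of all genes (14.7% higher and 11.2% lower). Akap1, which anchors PKA at mitochondria, had the highest log2 fold change of the lists, 4.91 (standard error 0.67, adjusted p = 4.8e-04), with 4.09 to 8.08 CPM in wt/wt, 19.8 CPM in f/f and 69.8 to 639 CPM in mutant oocytes, and it was 5.54 without C3. Akap12 was at 57.5 to 91.1 CPM in wt/wt, 268 CPM in f/f and 281 to 630 CPM in mutant oocytes (2.05, adjusted p = 0.00376, and 2.63 without C3). Akap9, a scaffold of centrosome and Golgi, had a log2 fold change of 1.89 (adjusted p = 0.0269) that lost its call under library totals (1.46, adjusted p = 0.104), without wt1 (adjusted p = 0.0507) and without D4 (adjusted p = 0.0856). Akap10, also found at mitochondria, fell (-1.96, adjusted p = 0.0154), but not past the test without wt4 (-1.34, adjusted p = 0.0769). The 4 tested further PKA subunits and inhibitors, Prkar2b, Prkx, Pkib and Pkig, were not called, where 25.9% of all genes were.

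Among PKA targets and other effectors 1 of 8 tested genes was called, 12.5% beside 25.9% of all genes, and this was Cdc25b. It encodes the phosphatase that starts meiotic resumption once PKA no longer restrains it. Cdc25b was at 8.84, 1.29, 0.818 and 44.0 CPM in wt1, wt3, wt4 and wt5, 7.77 CPM in f/f, and 171, 203, 135, 288 and 50.4 CPM in D1, D2, D3, D4 and D7. In CPM each mutant lay above each control, and wt5 again came closest. As shares of library totals, wt5 (98 of 1637050 counts) stood above D7 (101 of 2135951). The log2 fold change was 3.76 (standard error 0.81, adjusted p = 0.00406), and 5.19 without wt5. Wee2, the oocyte kinase on the opposing side, was not called (1.65, adjusted p = 0.127). Cyclic GMP from the surrounding cells protects cyclic AMP from PDE3A, and 1 of 8 tested genes of that arm was called, 12.5% beside 25.9% of all genes. This was Impdh2, an enzyme of guanine nucleotide synthesis, called lower (-3.61, adjusted p = 0.0173). It was at 9.81 to 92.3 CPM in wt/wt, 1.11 CPM in f/f and 0.548 to 12.5 CPM in mutant oocytes, so the f/f oocyte lay among the mutants. Against the f/f oocyte alone Impdh2 turned to 1.46 (adjusted p = 0.69), its call was lost without wt1 (-2.95, adjusted p = 0.0531), and it was -5.46 without D7. With the f/f oocyte alone as control none of the 45 tested pathway genes was called, beside 0.034% of all genes. Of the 11 pathway genes called against both kinds of control, 4 then had a larger log2 fold change (4.46 for Cdc25b, 3.93 for Gnai2, 2.50 for Akap9 and -2.39 for Rgs2) and 6 a smaller one (3.78 for Akap1, 3.21 for Pde10a, 2.30 for Pde2a, 0.87 for Akap12, -1.25 for Pde3b and -1.30 for Akap10), with adjusted p from 0.104 to 0.512, beside Impdh2, which turned.

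**Figure D5:**
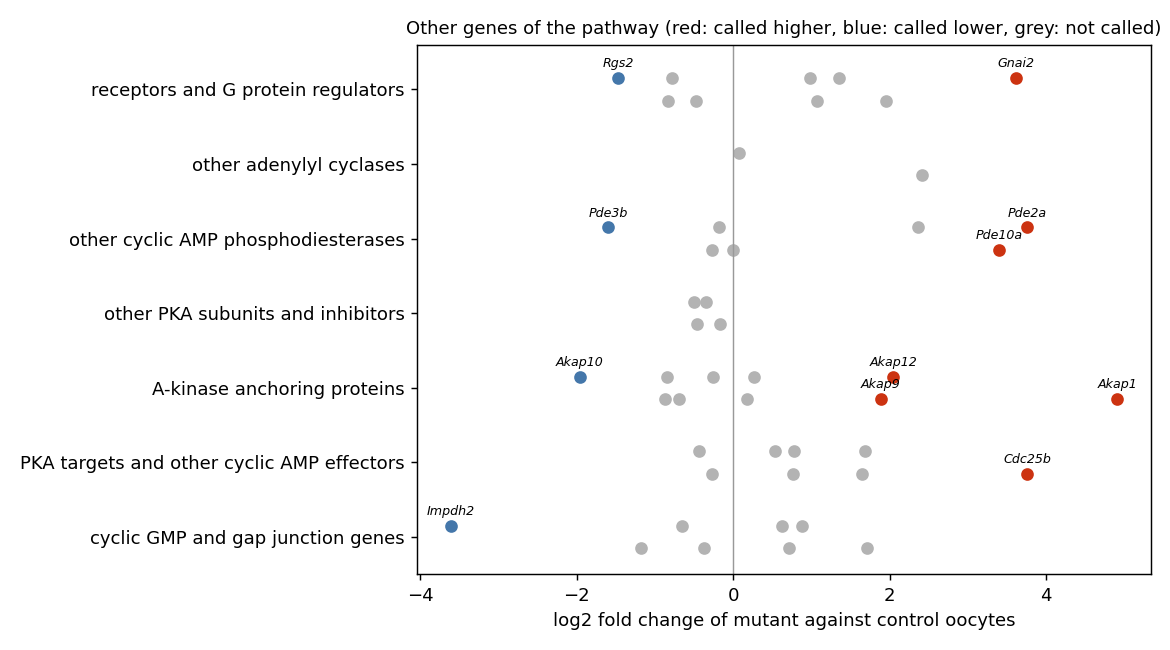
Log2 fold change, mutant over control, (horizontal axis) for the 48 tested genes of 7 lists (vertical axis). Red points are called higher, blue lower and grey not called, and called genes are named. Calls in both directions stood side by side among the phosphodiesterases and the A-kinase anchoring proteins.

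The tested genes whose log2 CPM followed a member most closely over the 10 oocytes were listed as a description, since depth, strain and genotype vary together over these oocytes and genes were picked for the highest Pearson r of all tested. Gpr3 was followed by Leng1 (r = 0.98) and Ube2o (0.97), Gpr12 by Setd8 (0.91) and Exosc8 (0.91), and Gnas by Tmem29 (0.99) and Ncaph (0.97). For the cyclases these were Col4a1 (0.94) and Rcan1 (0.92) for Adcy3 and Uri1 (0.94) and Rps28 (0.94) for Adcy9. The regulatory subunit genes gave Zcchc6 (0.87) and Bcl2l1 (0.86) for Prkar1a and Psmd1 (0.97) and E330011O21Rik (0.96) for Prkar2a. The catalytic subunit genes gave C030039L03Rik (0.95) and Pgm1 (0.95) for Prkaca and Ddx59 (0.94) and Specc1l (0.93) for Prkacb. Among the members themselves r ran from -0.75 between Prkaca and Prkacb to 0.87 between Gpr3 and Prkaca.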

How the data were processed

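Single-oocyte cDNA was made from poly(A) RNA and sequenced, and the authors filtered the reads, aligned them to mm10 with TopHat2 2.0.6 and counted unique alignments per RefSeq gene with HTSeq. The deposited values are these raw counts, without normalization. The 2 libraries that share each of the names C3, D3, D4 and D7 were summed as 1 oocyte, although the labels number them apart. The table's name for the C3 library with the suffix DNA has its letter and digit exchanged against the label, and 1 library per oocyte, without that suffix, was an alternative. Over genes with 20 reads or more their chi-square divided by its degrees of freedom was 11.6 to 28.8, beyond sampling noise. The labels name no females, so p-values measure the spread between these oocytes.

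Genes with a count (15432) were ranked by total count, the top 60% were kept, and the 9198 left were fitted in R 4.3.3 with edgeR 4.0.16 (TMM, glmQLFit, glmQLFTest, genotype as the one term). DESeq2 1.42.0 was an alternative. The common biological coefficient of variation was 0.609. Log2 CPM used a prior count of 2. Ratios were tested by exact permutation. The fit and the permutation test were tested on simulated data. A lone sample is assumed to vary like the other group. The lists and markers were written by hand, and 1 listed gene was not matched in the table. Exon lengths and overlaps came from GENCODE M21, promoters from RefSeq (GRCm38). The members, the lists and the tests were chosen with earlier results of these data known. Named were each member, each called gene of the lists, Kdm1a and the 2 genes most like each tested member, with Pde3b's counts, Wee2, Prkar2b, Prkx, Pkib, Pkig, Cd164l2, Cenpo and Nespas added after values were seen.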

Additional observations from a re-analysis of the deposited data

How the results depend on the processing

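Across 180 refits of single members, 150 kept direction and side of the threshold. The fit or ratio without C3 is the same as that with wt/wt alone, was counted under both names, and enters the ranges below. Gpr3 lost its call against the f/f oocyte alone and with the replicate block, where its log2 fold change was 3.29 (adjusted p = 0.0678), and Gnas against the f/f oocyte alone. With edgeR's own filter Gpr3, Gpr12 and Adcy3 had too few counts to be tested. All genes called were 2384, 3 against the f/f oocyte alone and 1607 to 2885 when 1 oocyte was left out. Members called higher went from 2 to 5 with wt/wt alone, which is the fit without C3, and stayed at 2 when any other oocyte was left out. Members called lower went from 0 to 1, Gpr12, with library totals, DESeq2 and every library as its own sample, and were 0 to 1 when 1 oocyte was left out. Pathway genes called higher were 11 with no filter, 11 with every library as its own sample and 0 with f/f alone, and those lower were 0 with f/f alone and 2 to 4 when 1 oocyte was left out. The labels' numbers belong to libraries and do not pair samples. With each library as a sample and the number as a replicate block, which leaves 4 residual degrees of freedom, 966 genes, 1 member higher (Gnas), 3 pathway genes higher and 0 lower were called.

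Adcy3 turned to -0.44 with library totals, -0.023 with every library and -0.016 with wt/wt alone, and ran from -0.17 to 0.49 when 1 oocyte was left out. Prkar1a turned to -0.34 with library totals. Against f/f alone Prkar2a turned to -1.71, Prkaca to -0.29, Prkacb to 0.77 and Impdh2 to 1.46. The log2 ratio of Gpr3 to Gpr12 ran from 4.77 to 6.51 when 1 oocyte was left out. Those of Prkar1a to Prkar2a (-2.82) and Prkaca to Prkacb (3.44) passed with wt/wt alone, and ran from -2.82 to -1.41 and from 2.03 to 3.44 when 1 oocyte was left out. The cause was not tested. Gpr3, Gpr12, Adcy3 and Pde3a rest on at most 43, 12, 10 and 1 counts in an oocyte.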
